A study of Mus musculus with 2 samples.

Results

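The genes of the insulin-like growth factor (IGF) axis were followed through every class of cells caught in endothelium-enriched preparations of mouse mammary tumors. The 9 genes, of 33696 in the count tables, were taken from a list of gene names, with no cut on their values, but the list was drawn up with earlier results of these data known. They are the binding proteins Igfbp2 (ENSMUSG00000039323), Igfbp3 (ENSMUSG00000020427), Igfbp4 (ENSMUSG00000017493), Igfbp5 (ENSMUSG00000026185), Igfbp6 (ENSMUSG00000023046) and Igfbp7 (ENSMUSG00000036256), the ligands Igf1 (ENSMUSG00000020053) and Igf2 (ENSMUSG00000048583), and the receptor Igf1r (ENSMUSG00000005533). IGF1 and IGF2 are secreted growth factors that signal through the receptor tyrosine kinase IGF1R, by way of insulin receptor substrates, phosphoinositide 3-kinase and AKT. Most IGF in tissue fluid is held by secreted binding proteins, which set how much of it reaches the receptor. IGFBP7 binds IGF weakly and is known as a secreted matrix protein of blood vessels, and IGFBP6 prefers IGF2.

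Tumors of the sublines PyMT-M, rich in macrophages (High-MAC), and PyMT-N, poor in them (Low-MAC), were grown from transplants in the mammary fat pad of young adult female C57BL/6 mice. Both lines come from the MMTV-PyMT model, in which the polyoma middle T oncogene is driven in mammary epithelium. Dissociated tumors were depleted of CD45+ and Ter119+ cells, selected on beads for CD31 and CD144 and sorted for CD31+ CD144+ cells. Cells of 3 tumors were pooled before a droplet-based 3′ library was made, so each model has 1 library, no difference between models has a replicate check, and no test was run. The tumors share the oncogene, the host strain and the sort, and each model is 1 transplanted line.

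Of 7821 PyMT-M and 6974 PyMT-N barcodes, 6719 and 5607 were kept, with medians of 21262 and 18558 UMIs, where a UMI is 1 counted RNA molecule. The libraries shared 20 barcodes. Cells were classed by their own UMIs into blood endothelial cells (Pecam1, Flt1, Emcn and Kdr), lymphatic cells (Prox1, Mmrn1 and Reln), Krt/Rhox5+ cells (Krt8, Krt18 and Rhox5 without Pecam1 or Flt1), fibroblasts (Col3a1) and Ptprc+ cells, and a cell could be in more than 1 class. PyMT-M gave 588 blood endothelial, 20 lymphatic, 4902 Krt/Rhox5+, 58 fibroblast and 488 Ptprc+ cells. PyMT-N gave 1065, 207, 3306, 63 and 357 cells in the same order. The median depth of blood endothelial cells was 5206.5 UMIs for PyMT-M and 12696 for PyMT-N, that of lymphatic cells 3558 and 11692, and that of Krt/Rhox5+ cells 23715.5 and 20757.5. That of fibroblasts was 7639 and 23413, and that of Ptprc+ cells 1721.5 and 7581. Levels are given as CPM, a gene's UMIs divided by all UMIs in the summed cells of a class and multiplied by 1000000, with an exact Poisson interval at 95% that covers counting error only. Shares of cells with a UMI have exact Clopper-Pearson intervals, and are given also with every cell thinned to 3000 UMIs.

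The labels were checked against markers that the class rules do not use. All 8 endothelial markers (Cdh5, Esam, Cd34, Tie1, Tek, Vwf, Egfl7 and Ecscr) were above 10 CPM in the blood endothelial cells of both libraries. So were the 4 lymphatic markers in lymphatic cells and the 5 fibroblast markers in fibroblasts. Passing 10 CPM did not set a class apart, since PyMT-N Ptprc+ cells did so for 8 endothelial, 4 lymphatic and 4 fibroblast markers. Lymphatic cells did so for 7 endothelial markers in each library. Each of these lists summed highest in its own class. The endothelial sum was 5197 CPM there in PyMT-M and 5569 CPM in PyMT-N. It was 2775 and 2728 CPM in lymphatic cells, and 472 CPM in PyMT-N Ptprc+ cells. The lymphatic sum in lymphatic cells was 3404 CPM in PyMT-M and 12997 CPM in PyMT-N, and the fibroblast sum in fibroblasts 16339 and 22502 CPM. The Krt/Rhox5+ cells, chosen as tumor cells, were low in the epithelial markers Epcam, Krt7, Krt19, Cldn4 and Cldn7, which summed to 3.54 CPM in PyMT-M and 1.38 CPM in PyMT-N, so they are called here by the genes of their rule. In PyMT-M they rested on Rhox5 (669 CPM) and Krt8 (268 CPM) with 8 Krt18 UMIs in all, and in PyMT-N on Krt18 (1003 CPM) and Krt8 (807.5 CPM) with Rhox5 at 14.5 CPM. The 8 immune markers summed to 57.6 CPM in PyMT-M and 576 CPM in PyMT-N blood endothelial cells, of which 6 and 56 also held a Ptprc UMI. The 8 pericyte and smooth muscle markers summed to 303 and 267 CPM there, with none at 0, but with Acta2 at 165 CPM against 1.74 and Abcc9 at 27.0 against 142, and the part of either list in the endothelial values was not tested. At the limit of the rule, the 15 PyMT-M cells just inside the blood endothelial class had Igfbp3 at 997 CPM and Igfbp7 at 3464 CPM, and the 19 just outside had 178 and 2585 CPM. The 8 PyMT-N cells just inside had 0 and 6.59 CPM, and the 23 just outside 28.1 and 76.3 CPM.

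Igfbp3 and Igfbp7 were the binding proteins of blood vessel endothelium in both models. Igfbp3, whose protein carries much of the circulating IGF, stood at 2400 CPM (2347 to 2453) in PyMT-M and 2885 CPM (2858 to 2912) in PyMT-N blood endothelial cells. In the other 4 classes it was lower, at 74.4 and 403 CPM in fibroblasts and 135 (12 UMIs) and 11.3 CPM in lymphatic cells. Ptprc+ cells had 5.47 (14 UMIs) and 229 CPM, and Krt/Rhox5+ cells 0.976 and 5.17 CPM. An Igfbp3 UMI was found in 72.8% of PyMT-M and 86.7% of PyMT-N blood endothelial cells, and after thinning in 73.8% (69.6 to 77.6) and 78.3% (75.7 to 80.7). In Krt/Rhox5+ cells, which are deeper, the shares were 2.24% and 8.68%, and 0.347% and 1.63% after thinning. They stand as the background because their thinned share was the lowest of the classes, so the contrast was set by that choice. Their rule also leaves out every cell with a Pecam1 or Flt1 UMI. Thinned shares were 9.80% and 37.1% in fibroblasts, 9.09% and 3.90% in lymphatic cells, and 2.00% and 6.13% in Ptprc+ cells. Igfbp3 was uneven among blood endothelial cells: the median cell stood at 1067 CPM in PyMT-M and 1937 CPM in PyMT-N, and the 5% of cells with most Igfbp3 held 24.8% and 22.7% of its UMIs.

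Igfbp7 stood at 5336 CPM (5258 to 5416) in PyMT-M and 5921 CPM (5882 to 5960) in PyMT-N blood endothelial cells. It was the more even of these genes, with the 5% richest cells holding 13.9% and 13.6% of its UMIs, and with a UMI in 98.6% and 96.5% of cells, or 98.8% and 95.7% after thinning. Outside blood endothelium the libraries differed by less than 2-fold in fibroblasts and lymphatic cells, and by more in Ptprc+ and Krt/Rhox5+ cells. The lymphatic difference crossed the 2-fold limit under alternative processing. Fibroblasts held Igfbp7 at 1340 CPM in PyMT-M and 2069 CPM in PyMT-N, lymphatic cells at 1270 and 657 CPM, and Ptprc+ cells at 53.1 and 618 CPM. Krt/Rhox5+ cells held it at 3.10 CPM (2.80 to 3.43) in PyMT-M and 1001 CPM (994 to 1008) in PyMT-N. That is a UMI in 235 of 4902 cells against 3275 of 3306, or 0.775% and 87.7% of cells after thinning.

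**Figure D1:**
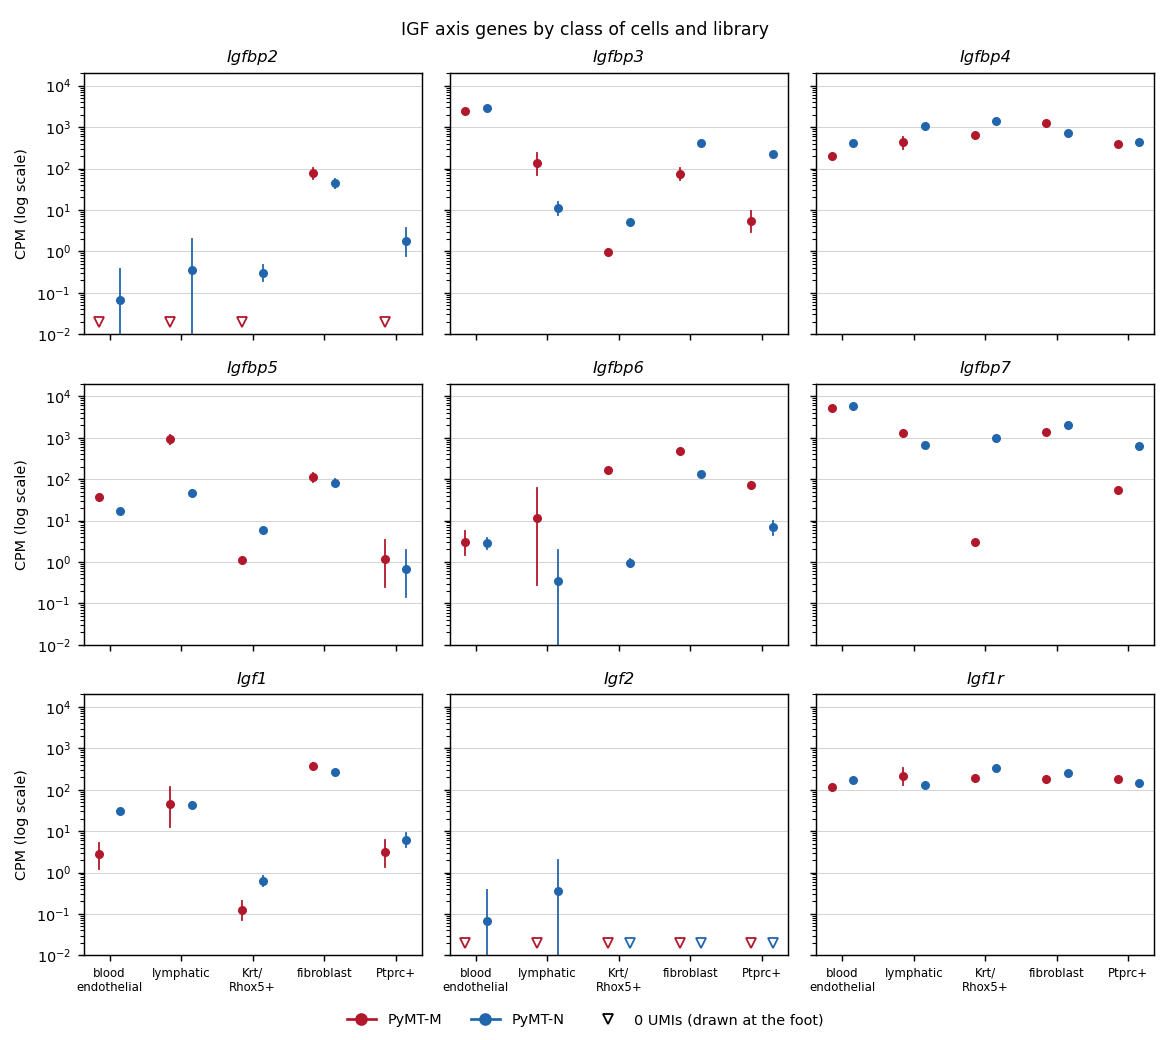
Level of each IGF axis gene in CPM (log axis) in the 5 classes of cells of PyMT-M (red) and PyMT-N (blue), with bars for the exact 95% Poisson interval of the summed count and open triangles for sums with 0 UMIs. Igfbp3 peaks in blood endothelial cells at 2400 and 2885 CPM, Igfbp7 in Krt/Rhox5+ cells is at 3.10 CPM in PyMT-M and 1001 CPM in PyMT-N, and Igf2 is at or near 0 throughout.

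Igfbp4, whose protein is cleaved by the protease PAPP-A to release IGF, was found in every class. Its order ran from PyMT-N Krt/Rhox5+ cells at 1426 CPM through PyMT-M fibroblasts at 1260, PyMT-N lymphatic cells at 1085, PyMT-N fibroblasts at 717 and PyMT-M Krt/Rhox5+ cells at 629 CPM. The next 4, in which no value differed beyond counting error from the one after it among the 4, were PyMT-M lymphatic cells (427 CPM), PyMT-N Ptprc+ cells (425), PyMT-N blood endothelial cells (404) and PyMT-M Ptprc+ cells (387). The Ptprc+ values, which were not neighbours in this order, differed beyond counting error, by a log2 ratio of CPM (PyMT-M over PyMT-N) of -0.14 (-0.25 to -0.03). Under alternative processing this ratio lay between -1.75 and 0.39, so its sign did not hold. PyMT-M blood endothelial cells came last at 199 CPM (184 to 214). Among blood endothelial cells 53.4% in PyMT-M and 87.2% in PyMT-N held a UMI, or 42.9% (38.4 to 47.5) and 57.8% (54.7 to 60.7) after thinning. Krt/Rhox5+ cells held it in 99.7% and 99.9% of cells, or 78.6% and 93.1% after thinning.

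Igfbp6 was a gene of fibroblasts in both libraries and of Krt/Rhox5+ cells in PyMT-M. Fibroblasts stood at 482 CPM (425 to 544) in PyMT-M and 131 CPM (114 to 151) in PyMT-N. Krt/Rhox5+ cells stood at 161 CPM (159 to 164) in PyMT-M and 0.953 CPM (0.746 to 1.20) in PyMT-N, which is 19515 UMIs against 72. A UMI was present in 82.2% of the PyMT-M cells (81.0 to 83.2) and 1.81% of the PyMT-N cells, or 34.4% and 0.212% after thinning, so the gene was spread over most of the PyMT-M cells and not held by a few. Blood endothelial cells had 3.03 CPM (10 UMIs) and 2.82 CPM (42 UMIs), and these did not differ beyond counting error.

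Igfbp5 and Igfbp2 were held by few cells. Igfbp5 in blood endothelial cells came to 36.4 CPM in PyMT-M and 16.8 CPM in PyMT-N, but from 8 of 588 cells (1.36%) and 22 of 1065 cells (2.07%). A single PyMT-M cell held 67 of the 120 UMIs, and a single PyMT-N cell 97 of 251. The highest level was that of PyMT-M lymphatic cells, at 910 CPM (723 to 1131) from 7 of 20 cells, against 47.3 CPM from 4 of 207 PyMT-N lymphatic cells, of which 1 held 96 of 134 UMIs. Fibroblasts had 112 and 82.3 CPM, within counting error of each other, in 11 of 58 and 11 of 63 cells. Igfbp2 was a fibroblast gene here, at 78.2 CPM (56.3 to 106) in PyMT-M and 44.4 CPM (34.5 to 56.3) in PyMT-N, in 15.5% and 20.6% of fibroblasts. No other class of either library passed 1.81 CPM of Igfbp2, and PyMT-M blood endothelial, lymphatic, Krt/Rhox5+ and Ptprc+ cells had 0 UMIs. For 0 of 588 blood endothelial cells, a floor of 3 counts allows a share of cells with an Igfbp2 UMI of up to 0.510%, and the exact interval reaches 0.625%.

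The ligands were sparse. Igf1 was highest in fibroblasts, at 382 CPM (331 to 437) in PyMT-M and 262 CPM (237 to 289) in PyMT-N, with a UMI in 65.5% and 73.0% of them, or 45.1% and 38.7% after thinning. Lymphatic cells followed at 44.9 CPM (4 UMIs) in PyMT-M and 43.4 CPM (123 UMIs) in PyMT-N, which did not differ beyond counting error. PyMT-N blood endothelial cells came next at 31.4 CPM (28.6 to 34.4), with Igf1 in 20.7% of cells, whereas PyMT-M blood endothelial cells held 9 UMIs, 2.73 CPM (1.25 to 5.18), in 1.53% of cells. Thinned, the shares were 8.22% (6.64 to 10.0) and 1.04% (0.339 to 2.41). In Krt/Rhox5+ cells, again the class with the lowest share, they were 0.182% in PyMT-N and 0.041% in PyMT-M. In Ptprc+ cells they were 0.323% and 2.00% in the same order, and in lymphatic cells 12.2% and 18.2%. Igf2 had 2 UMIs in the kept cells of both libraries together, 1 in a PyMT-N blood endothelial cell and 1 in a PyMT-N lymphatic cell. A floor of 3 counts corresponds to 5.58 CPM of Igf2 in PyMT-M and 1.96 CPM in PyMT-N fibroblasts, and the exact intervals reach 6.87 and 2.41 CPM.

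Igf1r, the receptor, was found everywhere and varied least of the genes with more than a few UMIs. It ranged from 113 CPM (102 to 126) in PyMT-M blood endothelial cells to 330 CPM (326 to 334) in PyMT-N Krt/Rhox5+ cells. PyMT-N fibroblasts (259 CPM), PyMT-M lymphatic cells (213), Krt/Rhox5+ cells (192), Ptprc+ cells (179) and fibroblasts (177), and PyMT-N blood endothelial cells (169) followed in that order, and among these 6 none differed beyond counting error from the one after it. Values farther apart in the order could differ, as the first and last of the 6 did, by a log2 ratio of CPM of 0.62 (0.46 to 0.77). PyMT-N Ptprc+ cells (146 CPM) lay below them, and PyMT-N lymphatic cells (128) were within counting error of PyMT-M blood endothelial cells. After thinning, a UMI was present in 26.5% of PyMT-M and 33.9% of PyMT-N blood endothelial cells, and in 41.2% and 58.2% of Krt/Rhox5+ cells.

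**Figure D2:**
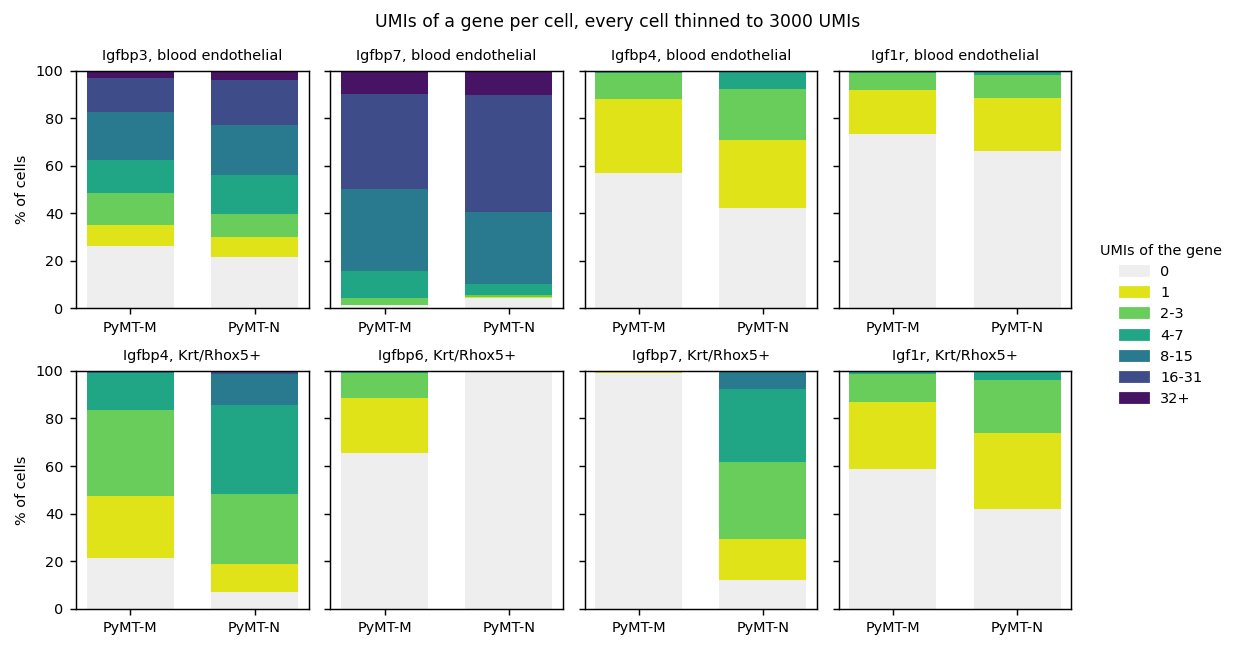
Share of cells (%) by the UMIs of a gene they hold, after every cell was thinned to 3000 UMIs, for blood endothelial cells (upper row) and Krt/Rhox5+ cells (lower row) of both libraries, with grey for 0. Igfbp7 is found in 98.8% and 95.7% of blood endothelial cells, Igfbp6 in 34.4% of PyMT-M and 0.212% of PyMT-N Krt/Rhox5+ cells, and Igfbp7 in 0.775% and 87.7% of the latter.

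The comparison between the models sets endothelium and its neighbours in 1 subline against those in the other. The paper describes the Low-MAC models, PyMT-N among them, as also higher in neutrophils. Macrophages, neutrophils and other traits of each line cannot be told apart here. In blood endothelial cells the abundant binding proteins were close, and the largest difference was in Igf1. The log2 ratio of CPM (PyMT-M over PyMT-N) was -0.27 for Igfbp3 (-0.30 to -0.23), -0.15 for Igfbp7 (-0.17 to -0.13) and -0.58 for Igf1r (-0.74 to -0.42). Igf1 was 11.5-fold lower in PyMT-M, a log2 ratio of -3.52 (-4.66 to -2.59), and stayed between -4.23 and -3.24 under every alternative tried. Igfbp4 was 2.03-fold lower, at -1.02 (-1.14 to -0.91), and lay between -1.11 and -0.96 under the alternatives, so that it sits on the 2-fold limit. Igfbp5 was higher, at 1.11 (0.79 to 1.43), but fell to 0.64 without the richest cell of each library. Thus 3 of the 6 genes that could be ranked (at least 100 UMIs over both sums) were past 2-fold, beside 8.71% of 10196 genes. Of these 1 was higher, beside 3.37% of all genes, and 2 were lower, beside 5.34%. Taking the mean over cells in place of the sum left 1. With the cells of more than 1 class left out, among them the 6 and 56 with a Ptprc UMI, Igf1 stood at -3.57, Igfbp4 at -1.07 and Igfbp5 at 1.02. In these pools a lower level can mean fewer expressing cells or less RNA per cell, and which of these held was not tested. The share of cells with Igf1 cannot tell them apart, since the 9 UMIs of PyMT-M lay in 9 cells, so that share and level move together.

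**Figure D3:**
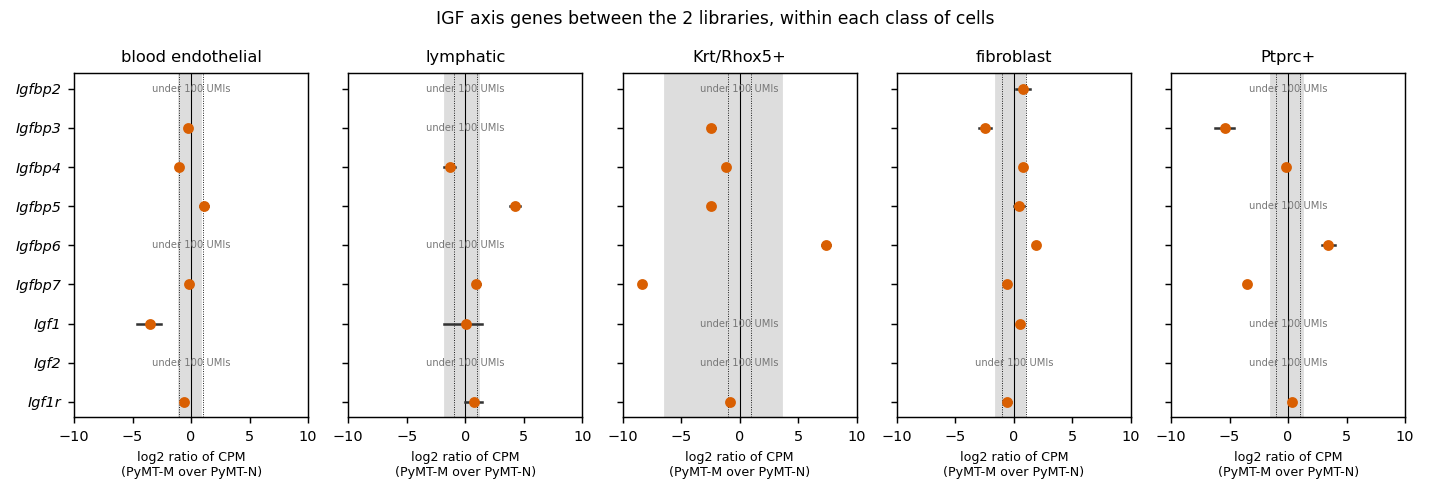
Log2 ratio of CPM (PyMT-M over PyMT-N) of each IGF axis gene within each class, with bars for the exact 95% Poisson interval, dotted lines at 2-fold and a grey band for the central 90% of all ranked genes of that class. Igfbp6 at 7.40 and Igfbp7 at -8.33 lie outside the band in Krt/Rhox5+ cells, as does Igf1 at -3.52 in blood endothelial cells.

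In Krt/Rhox5+ cells the models carried different binding proteins. PyMT-M cells had Igfbp6 169-fold above PyMT-N cells, a log2 ratio of 7.40 (7.07 to 7.76), and PyMT-N cells had Igfbp7 323-fold above PyMT-M cells, a log2 ratio of -8.33 (-8.48 to -8.19). Igfbp4 was lower in PyMT-M at -1.18 (-1.19 to -1.17), with alternatives from -1.53 to -0.98 that cross the 2-fold limit, and Igf1r stood at -0.78 (-0.81 to -0.75). Igfbp3 (-2.41) and Igfbp5 (-2.43) were also lower, at levels of at most 6.04 CPM in either library. In all 5 of 6 ranked genes were past 2-fold, beside 44.2% of 13743 genes, so that a difference of this size was common in this class. Of these 1 was higher, beside 20.3% of all genes, and 4 were lower, beside 23.9%. Leaving out cells with over 2 UMIs of stromal or immune markers removed most of the class, with 682 PyMT-M and 641 PyMT-N cells left, and 4 members could then be ranked, of which 3 were past 2-fold. Igfbp5 turned to 0.08 (-1.01 to 1.19) and Igfbp3 stood at -1.63 (-2.49 to -0.83) in those cells. Igfbp6 stayed between 7.28 and 7.90 and Igfbp7 between -9.11 and -8.13 under all alternatives.

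In lymphatic cells Igfbp5 was higher in PyMT-M at a log2 ratio of 4.27 (3.85 to 4.68) and Igfbp4 lower at -1.35 (-1.85 to -0.89), 2 of 5 ranked genes beside 21.3% of 5193. Both rest on 20 PyMT-M cells, with 81 UMIs of Igfbp5 and 38 of Igfbp4. The lymphatic markers outside the rule summed lower in those cells than in PyMT-N lymphatic cells. The part of this in the ratios was not tested. Igfbp7 stood at 0.95 (0.66 to 1.22) and fell to 0.45 without the richest cell of each library.

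In fibroblasts Igfbp6 was higher in PyMT-M at 1.88 (1.61 to 2.15) and Igfbp3 lower at -2.44 (-2.94 to -1.97), 2 of 8 ranked genes beside 14.8% of 3597. Igfbp4 stood at 0.81, Igf1 at 0.54 and Igf1r at -0.55. Fibroblasts in both libraries overlapped Krt/Rhox5+ cells, in 12 and 9 cells, and with cells of more than 1 class left out 6 genes were past 2-fold, with Igfbp2 at 1.52, Igfbp4 at 1.16, Igf1 at 1.01 and Igf1r at -1.18 added. PyMT-M fibroblasts held Rgs5 at 184 CPM, in 5.17% of cells, and PyMT-N fibroblasts held none. All 8 pericyte and smooth muscle markers were above 0 in PyMT-M and all but Rgs5 in PyMT-N, with sums of 1427 and 1730 CPM, and their part in the result was not tested.

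In Ptprc+ cells Igfbp6 was higher in PyMT-M at 3.43 (2.87 to 4.04, and 1.00 to 4.56 under the alternatives), and Igfbp3 (-5.39) and Igfbp7 (-3.54) lower, 3 of 5 ranked genes beside 19.3% of 8200. These cells also held the genes of Krt/Rhox5+ cells, with Rhox5 at 395 CPM in PyMT-M and Krt18 at 204 CPM in PyMT-N. Per Rhox5 UMI, PyMT-M Ptprc+ cells had 0.978 UMIs of Igfbp4 and 0.185 of Igfbp6, and Krt/Rhox5+ cells 0.941 and 0.241. The other members with UMIs there were higher in Ptprc+ cells, among them Igf1r (0.454 against 0.287), Igfbp3 (0.0138 against 0.00146) and Igfbp7 (0.134 against 0.00464). Per Krt18 UMI, PyMT-N Ptprc+ cells had 2.08 of Igfbp4, 0.0332 of Igfbp6 and 3.03 of Igfbp7, and Krt/Rhox5+ cells 1.42, 0.00095 and 0.998. Igfbp5, on 3 UMIs, was lower in these PyMT-N Ptprc+ cells. These classes share cells, since 41 PyMT-M and 19 PyMT-N Ptprc+ cells were also Krt/Rhox5+ by rule. Leaving out cells of more than 1 class cut the PyMT-M Ptprc+ sum from 2561244 to 1458333 UMIs. Of the Igfbp3 UMIs of PyMT-N Ptprc+ cells, 97.4% lay in 5% of the cells, and 56 of these 357 cells were also blood endothelial by rule. The part of such RNA in the Ptprc+ values was not tested.

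Set against blood endothelium within each library, the binding proteins overlapped between classes but differed in level. Igfbp3 was lower in Krt/Rhox5+ cells by a log2 ratio of -11.26 in PyMT-M and -9.12 in PyMT-N, in lymphatic cells by -4.15 and -8.00, and in fibroblasts by -5.01 and -2.84. Of the PyMT-M lymphatic Igfbp3 UMIs, 11 of 12 lay in 1 cell, and without it the ratio was -7.59. Igfbp7 was lower in Krt/Rhox5+ cells by -10.75 and -2.56, in lymphatic cells by -2.07 and -3.17, and in fibroblasts by -1.99 and -1.52. Igfbp4 ran the other way, higher in Krt/Rhox5+ cells at 1.66 and 1.82 and in lymphatic cells at 1.10 and 1.42. In fibroblasts it was at 2.67 in PyMT-M and 0.83 in PyMT-N. The PyMT-M lymphatic ratio of Igfbp4 fell to 0.27 with thinned cells, and the PyMT-N fibroblast ratio lay between 0.25 and 1.24 under alternatives. In Ptprc+ cells Igfbp4 was at 0.96 and 0.07. Both changed sign without cells over 2 times the median UMIs of their class, to -2.23 and -1.59.

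Among members with at least 100 UMIs over both sums, fibroblasts exceeded blood endothelium most in Igfbp6, with log2 ratios of 7.31 and 5.54, and in Igf1, with 7.13 and 3.06. Igfbp2, under that minimum, had 42 UMIs in fibroblasts against 0 in blood endothelial cells of PyMT-M and 68 against 1 in PyMT-N, the latter a log2 ratio of 9.37 (6.84 to 14.7). Igf1r was higher than in blood endothelium by less than 2-fold in Krt/Rhox5+ cells, at 0.76 and 0.97, and in fibroblasts, at 0.64 and 0.62. The Krt/Rhox5+ ratios kept their sign but reached 1.01 and 1.04 under alternatives, past the 2-fold limit. In fibroblasts the PyMT-M ratio went to -0.26 with stricter class rules, and the PyMT-N ratio kept its sign. In lymphatic cells it was at 0.91 (0.16 to 1.58) in PyMT-M and -0.40 (-0.56 to -0.24) in PyMT-N. In Ptprc+ cells it was at 0.66 (0.46 to 0.86) and -0.21 (-0.34 to -0.08). The PyMT-M values of lymphatic and Ptprc+ cells also changed sign under alternatives, and the PyMT-N values of these classes did not. The lymphatic value went to -0.09 with thinned cells, and the Ptprc+ value to -0.29 without cells over 2 times the median UMIs of their class. Only the blood endothelial rule caps the UMIs of Krt8, Krt18 and Rhox5. Rhox5 stood at 240 CPM in PyMT-M fibroblasts and 101 in lymphatic cells, against 9.71 in blood endothelial cells. Krt18 stood at 86.2, 57.5 and 5.03 CPM in these classes of PyMT-N. The part of Krt/Rhox5+ RNA in the Igf1r, Igfbp4 and Igfbp6 ratios was not tested. Past 2-fold from blood endothelium were 5 of 6 and 6 of 7 ranked genes in Krt/Rhox5+ cells beside 40.0% and 35.0% of all genes, and 4 of 5 and 4 of 6 in lymphatic cells beside 24.6% and 16.7%. In fibroblasts they were 6 of 7 and 5 of 7 beside 28.5% and 31.7%, and in Ptprc+ cells 4 of 6 in each library beside 29.0% and 28.7%.

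Within blood endothelial cells the genes varied with vessel markers, compared between cells with at least 3 UMIs of a marker set and cells with none. Such cells are ranges of marker UMIs and not types. Cells with none were shallower in every case but the arterial markers of PyMT-M (5195.5 against 4682 UMIs at the median). In PyMT-N the cells without tip, arterial, venous or capillary markers held more Ptprc, at 781 CPM where capillary markers were absent against 5.72 CPM where present, so values in cells with no Ptprc UMI are also given. Capillary markers (Gpihbp1, Cd300lg, Car4, Cd36 and Timp4) went with Igfbp3, at 2762 CPM in 462 PyMT-M cells with them against 231 CPM in 42 cells without, and at 3322 CPM in 883 PyMT-N cells against 311 CPM in 93 cells. The log2 ratios were 3.58 and 3.42, and 3.52 and 2.14 with Ptprc at 0.

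Venous markers (Ackr1, Selp, Sele and Nr2f2) went with less Igfbp3. It stood at 612 CPM with them and 3026 CPM without in PyMT-M, a log2 ratio of -2.31, and at 1904 and 3231 CPM in PyMT-N, a log2 ratio of -0.76, or -2.32 and -0.96 with Ptprc at 0. Igfbp5 went the other way, at 177 CPM with and 5.65 CPM without venous markers in PyMT-M and at 59.8 and 3.01 CPM in PyMT-N. These levels come from 5 of 92 and 2 of 348 cells in PyMT-M, and from 12 of 201 and 4 of 568 cells in PyMT-N. Igfbp5 also stood lower beside tip markers, at log2 ratios of -3.85 and -2.49. These came from 2 cells with and 5 without tip markers in PyMT-M, and from 9 and 6 in PyMT-N.

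Tip markers (Apln, Esm1, Angpt2 and Pgf), which mark the leading cells of sprouts, went with more Igfbp3, at 3022 against 1397 CPM in PyMT-M and 3679 against 1380 CPM in PyMT-N. The log2 ratios were 1.11 (1.02 to 1.21) and 1.42 (1.37 to 1.46), or 1.09 and 0.99 with Ptprc at 0. Igfbp4 moved in opposite directions, at -0.54 (-0.81 to -0.27) in PyMT-M and 0.64 (0.55 to 0.74) in PyMT-N, and this opposition was also present with Ptprc at 0, at -0.56 and 0.40. Arterial markers (Gja5, Gja4, Bmx, Sema3g, Sox17 and Hey1) went with Igfbp3 at 0.58 and 1.43, or 0.55 and 1.02.

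Cycling markers (Mki67, Top2a and Birc5) went with less of several members. Igfbp3 was at 1456 CPM in 92 PyMT-M cells with them and 2835 CPM in 431 cells without, and at 856 CPM in 116 and 3417 CPM in 872 PyMT-N cells. The log2 ratio was -0.96 in PyMT-M and lay between -2.06 and -1.93 in PyMT-N, and was -0.96 and -1.83 with Ptprc at 0. Igf1 in PyMT-N had 5 UMIs in cycling and 433 in other cells, a log2 ratio of -4.08 (-5.71 to -2.85), and Igf1r stood at -1.01 (-1.22 to -0.80). In PyMT-M, Igf1r stood at -0.38 (-0.77 to -0.00) and Igf1 had too few UMIs for a ratio. Igf1 in PyMT-N further went with capillary markers at 2.77 (3.25 with Ptprc at 0) and against venous markers at -1.20 (-1.33). Igfbp7 hardly moved, lying between -0.49 and 0.45 for tip, arterial, venous and cycling markers in both libraries, Ptprc at 0 or not. For capillary markers it was at 0.91 in PyMT-M. In PyMT-N it was at 1.31, which fell to 0.01 with Ptprc at 0.

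**Figure D4:**
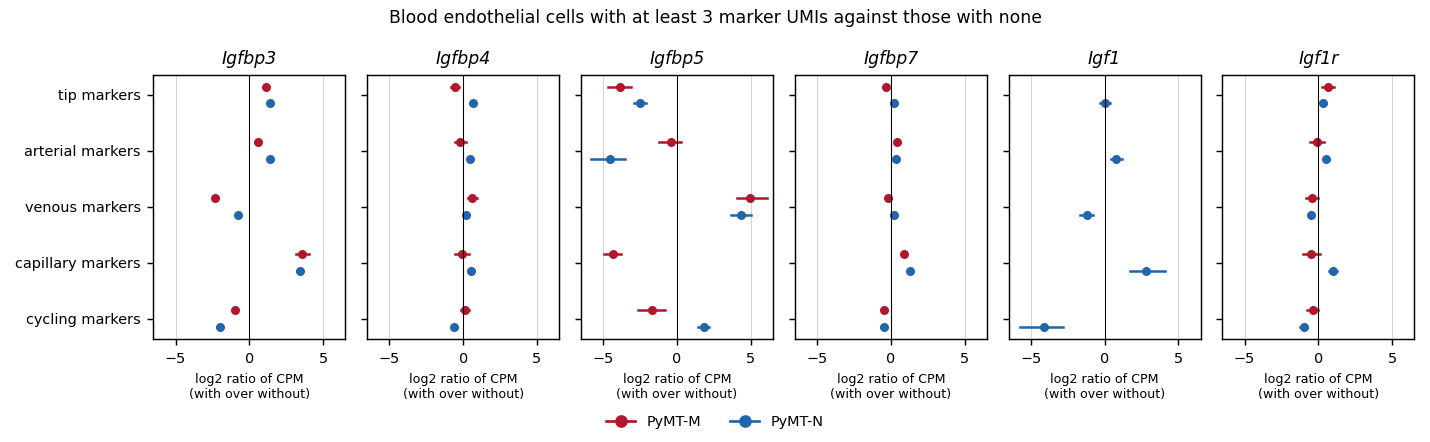
Log2 ratio of CPM between blood endothelial cells with at least 3 UMIs of a marker set and cells with none, for PyMT-M (red) and PyMT-N (blue), with exact 95% Poisson intervals, where the 2 sums hold at least 100 UMIs and neither is 0. Igfbp3 is higher beside capillary markers at 3.58 and 3.42 and lower beside cycling markers, at -0.96 in PyMT-M, and Igfbp5 is higher beside venous markers at 4.97 and 4.31.

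Krt/Rhox5+ cells were mostly cycling by these markers in PyMT-M, with 3691 cells at 3 or more UMIs and 599 with none, and mostly not in PyMT-N, with 156 and 2681. Igfbp6 in PyMT-M was lower in cycling cells, at 150 against 226 CPM, a log2 ratio of -0.59 (-0.65 to -0.53). Igfbp7 in PyMT-N was at 799 against 1036 CPM, a log2 ratio of -0.38, and Igfbp4 at -0.09 in PyMT-M and -0.29 in PyMT-N. Igf1r differed by 0.06 and -0.03. Between the libraries these cells had log2 ratios of 7.40 for Igfbp6, -8.33 for Igfbp7, -1.18 for Igfbp4 and -0.78 for Igf1r. The part of cycling in them was not tested.

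Of 27 further genes of the pathway (related receptors, proteases and their inhibitors, substrates, kinases, FOXO factors and IGF2 mRNA-binding proteins), 14 could be ranked between the libraries in blood endothelial cells. Past 2-fold was 1 of the 14, beside 8.71% of all genes. It was Stc1, an inhibitor of the PAPP-A protease, at 209 CPM in PyMT-M and 82.0 CPM in PyMT-N, for a log2 ratio of 1.35 (1.22 to 1.49). The median of the 14 was -0.16, beside -0.00 over all genes ranked. Insr, the insulin receptor, was at 343 and 561 CPM, a ratio of -0.71, and Igf2r, the receptor that clears IGF2, at 64.9 and 46.7 CPM, a ratio of 0.47. The adapters Irs1 and Irs2 were near absent from blood endothelial cells, with 1 UMI each in PyMT-M against 8 and 49 in PyMT-N. Pappa, which encodes PAPP-A, had 0 UMIs in the blood endothelial cells of both libraries, and was at 16.8 and 60.7 CPM in fibroblasts.

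In Krt/Rhox5+ cells 14 of 22 ranked pathway genes were past 2-fold, beside 44.2% of all genes. In PyMT-M 2 were higher, beside 20.3%, and 12 lower, beside 23.9%, with a median log2 ratio of -1.26 beside -0.07 over all genes ranked. Foxo1, a transcription factor that AKT restrains, had 25 UMIs in PyMT-M against 8258 in PyMT-N (0.207 and 109 CPM, a ratio of -9.05). Irs1 had 6 UMIs and 1582 (0.0496 and 20.9 CPM, a ratio of -8.72). H19, the imprinted transcript beside Igf2, had 0 UMIs against 644, at least 343-fold lower by a floor of 3 counts over the class, and Igf2bp1 had 407 against 0, at least 84.8-fold higher.

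The other genes of the list that were lower in these cells were Pappa (-6.09, from -8.39 to -4.51, on 3 UMIs in PyMT-M), Stc1 (-3.15), Igf2r (-3.12), the kinase subunit Pik3r1 (-2.54), Pappa2 (-2.18), the adapter Shc1 (-1.34), the serine protease Htra1 (-1.29), Foxo3 (-1.28) and Pik3cb (-1.23), and Igfals was higher (1.04). Irs2 stood at -0.91 and Insr at -0.18. Insr was below its level in blood endothelium in both libraries, by -3.27 and -3.80, whereas Igf2r was below it in PyMT-M, by -1.79, and above it in PyMT-N, at 1.80. Between the libraries 1 of 8 ranked pathway genes was past 2-fold in lymphatic cells beside 21.3% of all genes, 3 of 9 in fibroblasts beside 14.8%, and 4 of 13 in Ptprc+ cells beside 19.3%.

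**Figure D5:**
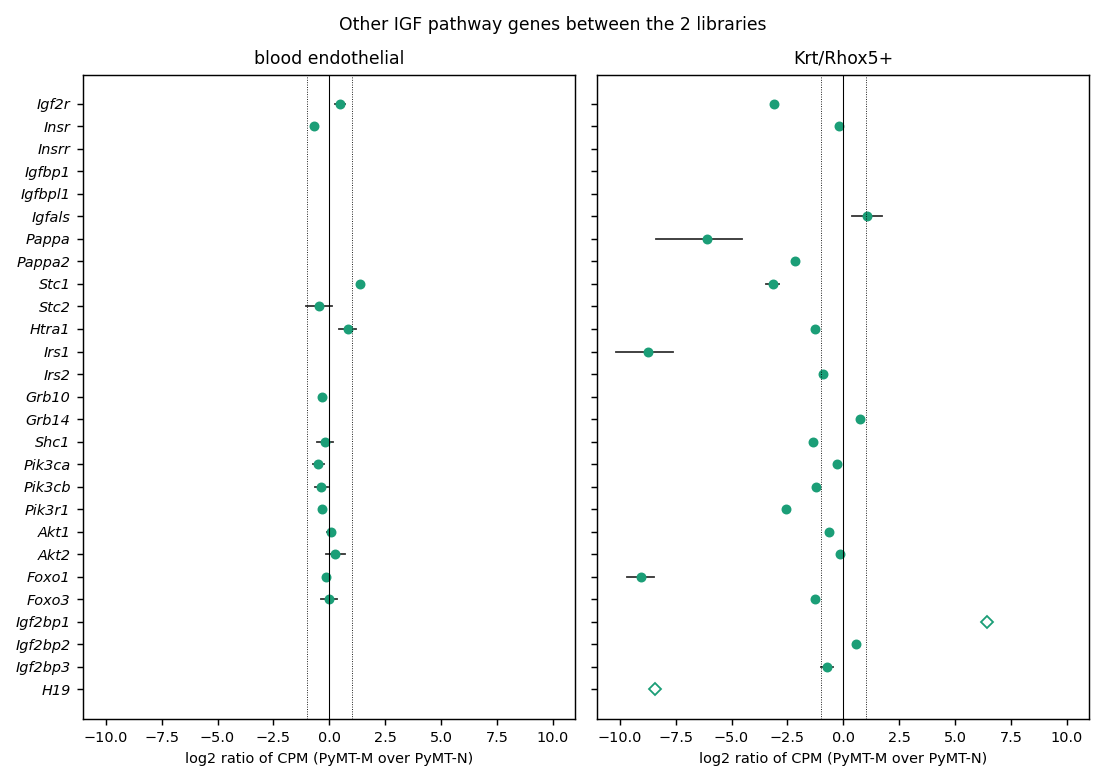
Log2 ratio of CPM (PyMT-M over PyMT-N) of 27 other IGF pathway genes in blood endothelial and Krt/Rhox5+ cells, with exact 95% Poisson intervals, dotted lines at 2-fold, open diamonds for ratios against the floor of 3 counts, and no point for genes under 100 UMIs. In blood endothelial cells only Stc1 at 1.35 is past 2-fold, and in Krt/Rhox5+ cells 12 genes are lower in PyMT-M, with Foxo1 at -9.05 and Irs1 at -8.72.

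In the gene order of the GRCm38.p6 annotation Igfbp2 is next to Igfbp5. Igfbp5 had UMIs in all 10 sums of class and library, whereas Igfbp2 had 0 in 4 of them. Igfbp1, next to Igfbp3, had 2 UMIs in all kept cells. Ins2, next to Igf2, also had 2.

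Across the 10 sums, which share libraries and partly cells, the genes most like each member by Pearson correlation of log2(CPM + 1) over 15206 genes were given without a test. Nearest to Igfbp3 was Agmo (r = 0.942), to Igfbp7 Plpp3 (0.985), to Igfbp6 Bcat1 (0.958), to Igfbp4 Rhobtb3 (0.940), to Igfbp5 Xxylt1 (0.981), to Igfbp2 Gpc3 (0.997), to Igf1 Ctsf (0.973) and to Igf1r Cd99l2 (0.891). The next were Bace2 and Ccdc71l for Igfbp3, Cd81 and Lmbr1 for Igfbp7, Dnmt3l and Pramel13 for Igfbp6, Gm16159 and Serf1 for Igfbp4, Rab23 and Cebpd for Igfbp5, Srpx and Svep1 for Igfbp2, Sec16a and Abi3bp for Igf1, and Arl3 and Stmp1 for Igf1r. With 10 points from 2 libraries such values are high for many genes.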

How the data were processed

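As deposited by the authors, the values are raw UMI counts of genes in cell barcodes for 2 libraries. Cell Ranger 8.0.0 and the build mm39 are named in the submitters' processing notes. No coordinates are given, since the annotation at hand is of GRCm38.p6. Barcodes with at least 200 genes and at most 10% mitochondrial UMIs were kept. The study's further limit of 2-fold around the median number of genes, tried as an alternative, leaves 5777 and 5354 cells. Its effect differs by class. In PyMT-M it leaves 309 of 588 blood endothelial, 7 of 20 lymphatic and 88 of 488 Ptprc+ cells. In PyMT-N it leaves 1031 of 1065, 199 of 207 and 203 of 357 cells of these classes. A blood endothelial cell had at least 5 UMIs of Pecam1, Flt1, Emcn and Kdr, at most 1 of Krt8, Krt18 and Rhox5, and 0 of Prox1. A lymphatic cell had at least 3 of Prox1, Mmrn1 and Reln, and a Krt/Rhox5+ cell at least 3 of Krt8, Krt18 and Rhox5 and 0 of Pecam1 and Flt1. A fibroblast had Col3a1 at 3000 CPM or more, and a Ptprc+ cell at least 1 Ptprc UMI. No doublet caller was run. Cells of more than 1 class, or over 2 times the median UMIs of their class, were instead left out as alternatives.

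Counts were summed over the cells of a class and set against each other as log2 ratios, with exact Poisson intervals that cover counting error only. Genes with at least 100 UMIs over both sums were ranked, and past 2-fold was the call. A sum of 0 was replaced by 3 counts per class. Thinning left out 108 PyMT-M blood endothelial, 9 lymphatic and 338 Ptprc+ cells as too shallow. The script was tested on simulated Poisson counts, the same model as the intervals, with no spread between cells. That run checks the arithmetic and not the fit of the intervals to these data. Named were the 9 members, Igf2r, Insr, Irs1 and Irs2, each other pathway gene past 2-fold between libraries in blood endothelial or Krt/Rhox5+ cells, class markers, and the 3 genes most like each member. Grouping followed the labels, and members and lists were chosen with earlier results of these data known. The immune markers were Lyz2, Cd68, Csf1r, Adgre1, Cd74, Cd3e, S100a8 and Tyrobp, and those of pericytes and smooth muscle Rgs5, Pdgfrb, Cspg4, Notch3, Kcnj8, Abcc9, Acta2 and Myh11. Adipocyte markers (Adipoq and Plin1) summed to at most 0.0414 CPM in any class, and erythroid markers (Hbb-bs and Hba-a1) to at most 39.1 CPM. Values without shared barcodes, without the richest cell, with Ptprc at 0 and by cycling of Krt/Rhox5+ cells were added after seeing the data. The software was Python 3.11.15 with scipy 1.17.1, matplotlib 3.10.9, pandas 2.3.3 and numpy 2.4.6.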

Additional observations from a re-analysis of the deposited data

Results flagged for a closer look

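Among genes with at least 100 UMIs over both sums, 5 cases had opposite directions in a class and in blood endothelial cells. In each, the whole counting interval of the gene's ratio between the libraries lay on one side of 0 in the class and on the other in blood endothelial cells. Igfbp3 in lymphatic cells, with 12 and 32 UMIs, was under that minimum and is not among them. With 1 library per model, the difference between classes was not tested. Igfbp4 had a log2 ratio (PyMT-M over PyMT-N) of 0.81 in fibroblasts and -1.02 in blood endothelial cells. Igfbp5 stood at -2.43 in Krt/Rhox5+ cells and 1.11 in blood endothelial cells, and both values rest on few cells. Igfbp7 stood at 0.95 in lymphatic cells and -0.15 in blood endothelial cells. Igf1 stood at 0.54 in fibroblasts and -3.52 in blood endothelial cells. Igf1r stood at 0.29 in Ptprc+ cells and -0.58 in blood endothelial cells.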

How the results depend on the processing

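Each of 80 ratios was recomputed under 14 alternatives, 12 planned and 2 added. The count minimums of 50 and 200 UMIs are among the 14 but change only which genes are ranked, so no ratio could move under them. The sign held under all of them for 70 ratios, and the side of the 2-fold limit for 56. Of the counts of members past 2-fold, only those that changed by a large factor are listed below, so smaller changes are left out. Counts of the 27 further pathway genes are not listed, but 3 of them moved in this way by the mean over cells. In each of these, 2 moved: cells of 1 class only, thinned cells, minimums of 50 or 200 UMIs, and no cells over 2 times the median UMIs. With the 2-fold limit on genes, at most 5% mitochondrial UMIs or stricter class rules, 1 moved in each. No such count was made without the richest cell of each sum. Counts of members past 2-fold between the libraries moved in fibroblasts from 2 to 6 with cells of 1 class only and to 7 with stricter class rules, in Krt/Rhox5+ cells from 5 to 3 without cells holding over 2 stromal or immune marker UMIs, where Igfbp5 reversed from -2.43 to 0.083, Igfbp3 stood at -1.63 and 4 members in place of 6 could be ranked, and in blood endothelial cells from 3 to 1 by the mean over cells. In PyMT-M, counts against blood endothelium moved in Ptprc+ cells from 4 to 2 with a count minimum of 200 UMIs and to 2 with thinned cells. With thinned cells they also moved in lymphatic cells from 4 to 2 and in fibroblasts from 6 to 3. Fewer genes could also be ranked in the thinned sums and under the higher minimum. Without the richest cell of each sum, Igfbp5 fell from 1.49 to 0.38 in PyMT-N lymphatic against blood endothelial cells. No paired analysis was possible because the labels give no replicate numbers and each model has 1 library, and no replicate could be left out. Lymphatic values of PyMT-M rest on 20 cells, and fibroblast values on 58 and 63.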

Other observations

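Cells of no class, 724 of PyMT-M and 699 of PyMT-N, had median depths of 19462.5 and 22189 UMIs. Igfbp6 stood at 131 CPM in those of PyMT-M and 1.31 CPM in those of PyMT-N, and Igfbp4 at 596 and 1391 CPM, near the levels of the Krt/Rhox5+ cells of each library. Igfbp7, at 247 and 1705 CPM, and Igfbp3, at 84.1 and 318 CPM, were above the Krt/Rhox5+ levels in both. Igf1 stood at 1.24 and 6.17 CPM. Igfbp5 in the PyMT-N cells came to 40.0 CPM from 29 cells, of which 1 held 157 of 700 UMIs.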
